A study of Zea mays with 6 samples.

Results

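The gene IDs described here are those that begin with GRMZM in count tables of young maize ears, and they were chosen by that prefix and by a summed count of at least 1 over all libraries. Of 46272 gene IDs in the tables, 174 begin with GRMZM, and 121 of these met the rule while 53 had no count in any library. All 174 begin with GRMZM5G8. Of the 121, 31 had enough counts to be tested and 90 did not.

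Messenger RNA was sequenced from developing ears, the female inflorescences of maize, at a length of 2 to 3 mm. The compared plants were ra3;tpp4 double mutants, written ra3tpp4 in the library titles and below (3 libraries), and wild-type (WT) plants of the inbred line B73 (3 libraries). The gene ra3, RAMOSA3, limits branching of the inflorescence and codes for an enzyme that removes phosphate from trehalose phosphate, and tpp4 codes for a further enzyme of that family. The sources used here give no alleles, no genetic background of the double mutant and no number of plants in a library, and neither mutated gene was matched to an ID, so the labels were not checked through them.

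GRMZM numbers are the names that genes of B73 carried in earlier annotations of the maize genome, whereas most genes in these tables carry the newer Zm00001d names. The set had been proposed as likely genes of the organelles. Plastid and mitochondrial genomes of maize encode core subunits of the photosynthetic and respiratory complexes together with ribosomal proteins and RNAs, and most organelle transcripts lack the long poly(A) tail by which messenger RNA is captured. That proposal could not be checked here. None of the 174 IDs matched an entry of the RefSeq gene table for a later B73 assembly (0 of 174). Among its entries, 18526 list a GRMZM synonym, 1228 of them one that begins with GRMZM5G8, and 0 of these 1228 lie on the plastid or mitochondrial genome. The prefix is therefore also carried by genes outside the organelle genomes. The 158 plastid and 214 mitochondrial entries list 0 GRMZM synonyms, so the table could not have placed an organelle gene by its GRMZM number either. The IDs are called GRMZM IDs throughout, with no gene name or role, and no sequence or position is given for them.

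The GRMZM IDs took a small part of every library. Their share of all gene counts was 0.0270%, 0.0311% and 0.0251% in ra3tpp4 replicates 1, 2 and 3, against 0.0330%, 0.0287% and 0.0311% in WT replicates 1, 2 and 3. The genotypes overlapped, since ra3tpp4 replicate 2 lay above WT replicates 2 and 3. The mean shares were 0.0277% ± 0.00311 in ra3tpp4 and 0.0309% ± 0.00218 in WT (SD, n = 3 each). Which mean was higher depended on the denominator. Over all lines of the files, which include records given to no gene, the shares were 0.0212% ± 0.00204 in ra3tpp4 and 0.0206% ± 0.00106 in WT. These shares rest on 4835 to 7865 counts in ra3tpp4 libraries and on 7667 to 8539 in WT libraries. The widest 95% Wilson interval, which covers counting error only, ran from 0.0244% to 0.0258% in ra3tpp4 replicate 3.

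Counts were concentrated in few IDs. GRMZM5G845024, GRMZM5G884538, GRMZM5G861791 and GRMZM5G862955 held 17.5%, 17.0%, 16.6% and 10.6% of the 43434 counts of the set, 61.8% in all. These are shares of counts and not levels per transcript length, because the lengths of these genes were not at hand. GRMZM5G845024 was first in all ra3tpp4 libraries. GRMZM5G884538 was first in WT replicates 1 and 2, and GRMZM5G861791 in WT replicate 3. The 10 IDs with the highest mean level held 85.0% ± 0.626 of the set's counts in ra3tpp4 and 84.0% ± 1.15 in WT (SD, n = 3 each). At the low end, 55 of the 121 IDs had fewer than 10 counts over all libraries together, 13 of them a single count, and IDs just outside the rule had 0.

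The 4 IDs with the most counts did not pass the test between the genotypes. Levels are given as CPM, that is, gene counts scaled to a common library total. GRMZM5G845024 stood at 49.6, 61.0 and 44.8 CPM in ra3tpp4 replicates 1, 2 and 3, against 56.7, 47.8 and 49.1 CPM in WT replicates 1, 2 and 3. The mutant libraries held both the highest and the lowest value. The log2 change, always taken as ra3tpp4 over WT, was 0.04 with an SE of 0.109 (edgeR adjusted p = 0.912). GRMZM5G884538 stood at 49.0, 59.4 and 42.1 CPM in ra3tpp4, against 56.7, 49.8 and 42.7 CPM in WT. It too was highest in ra3tpp4 replicate 2 and lowest in ra3tpp4 replicate 3, with a log2 change of 0.04 (SE 0.133, edgeR adjusted p = 0.937). GRMZM5G861791 stood at 45.5, 50.4 and 41.6 CPM in ra3tpp4, against 54.6, 46.9 and 53.5 CPM in WT, with a log2 change of -0.15 (SE 0.0889, edgeR adjusted p = 0.519). Here WT replicate 1 was the highest library. GRMZM5G862955 stood at 31.7, 36.8 and 22.8 CPM in ra3tpp4, against 36.1, 30.3 and 28.5 CPM in WT. The log2 change, -0.03 (SE 0.161), had an edgeR adjusted p of 0.964. These values do not show that the levels were equal in both genotypes.

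**Figure D1:**
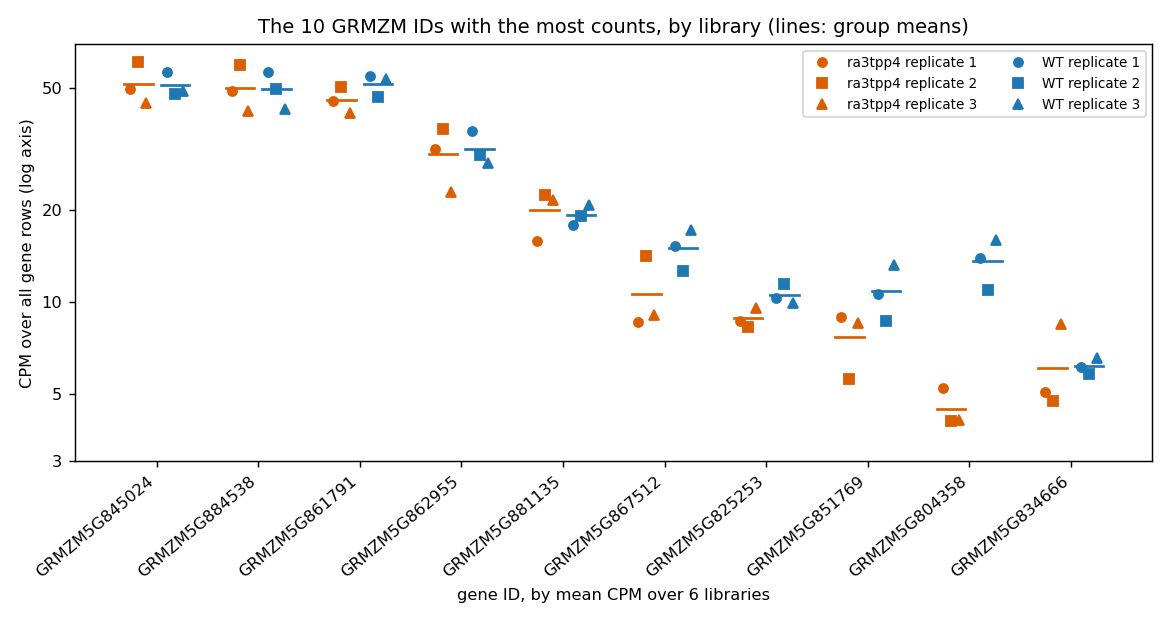
CPM (log axis) of the 10 GRMZM IDs with the highest mean level, with the 3 ra3tpp4 libraries in orange to the left of the 3 WT libraries in blue and a line at each group mean. The orange and blue points overlap for 8 of the IDs, and lie apart for GRMZM5G804358 and GRMZM5G825253.

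Ratios between the leading IDs ranged less over the libraries for some pairs than for others, and no pairs outside these IDs were compared. Counts of GRMZM5G845024 were 1.01, 1.03 and 1.06 times those of GRMZM5G884538 in ra3tpp4 replicates 1, 2 and 3, against 0.999, 0.960 and 1.15 times in WT replicates 1, 2 and 3. Neither genotype stood apart in this ratio. The ratio of GRMZM5G845024 to GRMZM5G861791 ran from 1.08 to 1.21 in ra3tpp4, against 0.918 to 1.04 in WT, with no overlap between the genotypes. In every other ratio computed between pairs of the leading IDs, up to the fifth by level, the genotypes overlapped, and no ratio was tested. The ratio of GRMZM5G862955 to GRMZM5G881135, the fifth ID by level, varied more, with 2.01, 1.64 and 1.06 in ra3tpp4, against 2.03, 1.59 and 1.38 in WT. GRMZM5G881135 itself stood at 15.8, 22.4 and 21.5 CPM in ra3tpp4, against 17.8, 19.1 and 20.7 CPM in WT (log2 change 0.07, SE 0.136, edgeR adjusted p = 0.870). In this ID ra3tpp4 replicate 1 was the lowest library, and not ra3tpp4 replicate 3 as in the 4 IDs above it.

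GRMZM5G804358 alone was called different between the genotypes. It stood at 5.20, 4.08 and 4.10 CPM in ra3tpp4 replicates 1, 2 and 3, from 125, 103 and 79 counts, against 13.9, 11.0 and 15.9 CPM in WT replicates 1, 2 and 3, from 360, 293 and 411 counts. The genotypes stood clear of each other, and the highest mutant value was less than the lowest WT value by more than the range of the mutant libraries. The means were 4.46 ± 0.640 CPM in ra3tpp4 and 13.6 ± 2.50 CPM in WT (SD, n = 3 each). The level fell 2.99-fold in ra3tpp4, with a log2 change of -1.58 (SE 0.178, edgeR adjusted p = 0.00344). In all 15 alternative fits it was again called lower, with log2 changes from -1.71 to -1.45 and adjusted p from 3.01e-11 to 0.0322. In bulk samples, fewer cells that express a gene and less RNA per cell cannot be told apart.

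Among all 21127 tested IDs of the series, 0.549% were called lower in ra3tpp4 and 0.918% higher. Of the 31 tested GRMZM IDs, 1 was called lower and 0 higher by edgeR. DESeq2 called 2 lower, where 1.65% of all tested IDs were called lower, and limma-voom called 1 lower, where the share over all tested IDs was 0.644%. Each called 0 of the 31 higher, where DESeq2 called 2.36% of all tested IDs higher and limma-voom 0.97%. At an unadjusted edgeR p under 0.05, 4 of the 31 were lower and 0 higher, against 6.02% lower and 7.36% higher over all tested IDs. The 2 and the 4 include GRMZM5G844030, which had enough counts to be tested through the WT libraries alone. With so few IDs, counts of 1, 2 and 4 give no more than a description.

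Of the other IDs at an unadjusted p under 0.05, GRMZM5G844030 showed the widest contrast and the fewest counts. It had 3, 0 and 3 counts in ra3tpp4 replicates 1, 2 and 3, against 31, 16 and 20 in WT replicates 1, 2 and 3. All mutant values were under all WT values. The summed counts were 6 in ra3tpp4 (exact Poisson interval 2.20 to 13.1) and 67 in WT (51.9 to 85.1), with intervals that cover counting error only and not the spread between libraries. The fitted log2 change was -3.17 (SE 0.751), which did not pass the test in edgeR (adjusted p = 0.0713). DESeq2 called it (adjusted p = 0.0178), and over its 14 alternatives the adjusted p ran from 0.0178 to 0.244. This ID passed the filter on low counts through the WT libraries alone, so a difference was built into its being tested.

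GRMZM5G807592 stood at 1.54, 1.31 and 0.985 CPM in ra3tpp4, against 2.13, 2.43 and 3.06 CPM in WT. The genotypes did not overlap, but the log2 change of -0.96 (SE 0.321) did not pass the test (edgeR adjusted p = 0.209). GRMZM5G867512 stood at 8.60, 14.1 and 9.07 CPM in ra3tpp4, against 15.2, 12.6 and 17.1 CPM in WT. Here ra3tpp4 replicate 2 lay above WT replicate 2. The log2 change, -0.47 (SE 0.191), had an edgeR adjusted p of 0.316, and it was called only when ra3tpp4 replicate 2 was left out (log2 change -0.73, adjusted p = 0.0279).

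The remaining IDs among the 10 with the highest level did not pass the test. GRMZM5G825253 stood at 8.65, 8.24 and 9.54 CPM in ra3tpp4, against 10.2, 11.4 and 9.92 CPM in WT. The groups did not overlap, with a small gap between ra3tpp4 replicate 3 and WT replicate 3 (log2 change -0.24, SE 0.136, edgeR adjusted p = 0.501). GRMZM5G851769 stood at 8.89, 5.58 and 8.50 CPM in ra3tpp4, against 10.6, 8.63 and 13.2 CPM in WT (log2 change -0.47, SE 0.214, edgeR adjusted p = 0.377). WT replicate 2 lay among the mutant libraries. GRMZM5G834666 stood at 5.07, 4.71 and 8.45 CPM in ra3tpp4, against 6.11, 5.79 and 6.55 CPM in WT, with a log2 change of 0.00 and an edgeR adjusted p of 1.00 after rounding. In this ID ra3tpp4 replicate 3 was the highest library, the reverse of its place in the leading IDs.

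The IDs with the 3 largest changes in each direction completed the named set. Among the negative ones, after GRMZM5G844030 and GRMZM5G804358, GRMZM5G890451 had 7, 21 and 2 counts in ra3tpp4, against 26, 16 and 41 in WT, a log2 change of -1.30 (SE 0.644, edgeR adjusted p = 0.422). The mutant libraries spread so widely that replicate 2 lay above WT replicate 2 in CPM. In the positive direction GRMZM5G845244 had 29, 32 and 4 counts in ra3tpp4, against 19, 17 and 13 in WT, with a log2 change of 0.56 (SE 0.578, edgeR adjusted p = 0.738). Its replicate 3 was the lowest of all libraries, although replicates 1 and 2 were the highest. GRMZM5G811749 stood at a log2 change of 0.51 (SE 0.528) and GRMZM5G818111 at 0.29 (SE 0.193), with edgeR adjusted p of 0.737 and 0.568. GRMZM5G818111 had 4.78, 5.82 and 4.61 CPM in ra3tpp4, against 4.64, 3.70 and 4.30 CPM in WT, and the groups overlapped narrowly. GRMZM5G836994, named after its values were seen, had 85, 51 and 17 counts in ra3tpp4, against 41, 53 and 54 in WT. Its spread lay among the mutant libraries, at 2.14 ± 1.33 CPM in ra3tpp4 and 1.89 ± 0.267 CPM in WT (SD, n = 3 each).

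**Figure D2:**
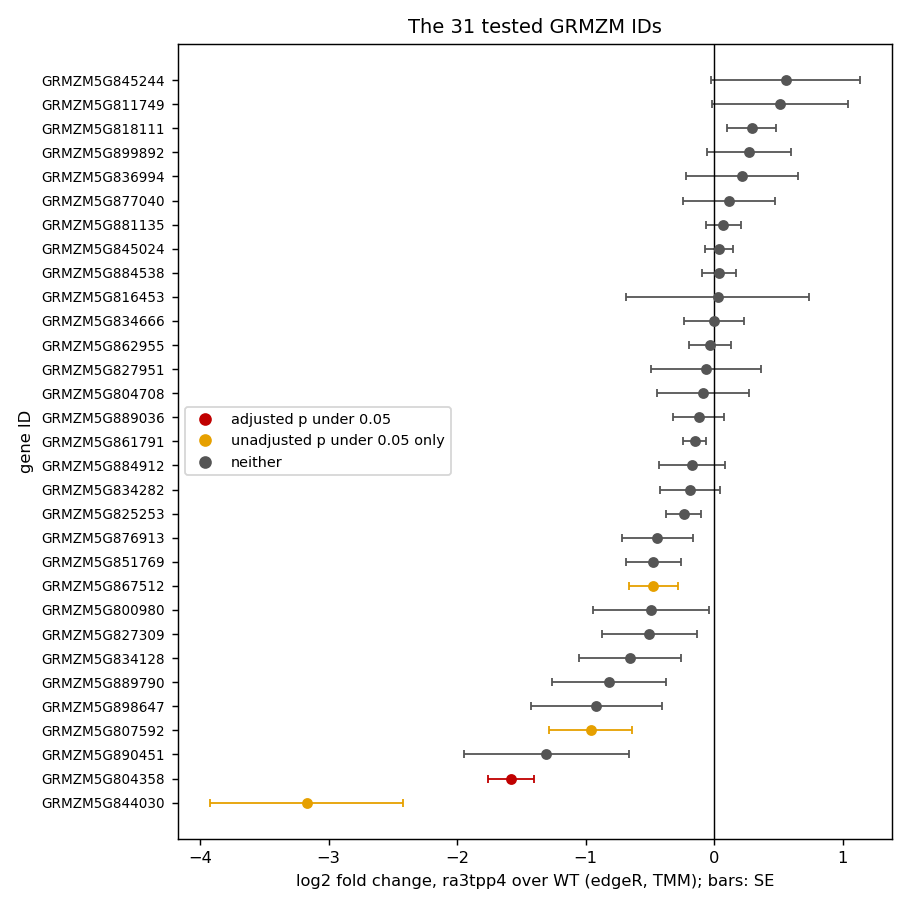
Log2 fold change of each of the 31 tested GRMZM IDs, ra3tpp4 over WT, with bars of 1 SE, and colours for the edgeR adjusted and unadjusted p. GRMZM5G804358 at -1.58 is the ID past the adjusted threshold, and 20 of the 31 points lie to the left of 0.

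The 31 tested IDs had log2 changes with a median of -0.15 (quartiles -0.50 and 0.04), beside -0.00218 (quartiles -0.12 and 0.12) over all tested IDs. A log2 change below 0 was found for 20 of the 31, where 50.5% of all tested IDs had one. All WT values exceeded all mutant values for 8 of the 31, where 11.4% of all tested IDs showed this. The opposite order was found for 0 of the 31, with 8.55% over all tested IDs. The 8 were GRMZM5G804358, GRMZM5G844030, GRMZM5G807592, GRMZM5G825253, GRMZM5G876913, GRMZM5G827309, GRMZM5G834128 and GRMZM5G800980. Of these only GRMZM5G804358 passed the edgeR test. GRMZM5G844030 passed the filter on low counts through the WT libraries alone, so its place among the 8 and the 20 was favoured by the filter. The members that passed the filter are not independent of each other, as they share libraries, and these counts are a description with no test.

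Levels were also summed by abundance class. Over the 4 leading IDs, the level was 176, 208 and 151 CPM in ra3tpp4 replicates 1, 2 and 3, against 204, 175 and 174 CPM in WT replicates 1, 2 and 3, with overlap. The means were 178 ± 28.2 CPM in ra3tpp4 and 184 ± 17.2 CPM in WT (SD, n = 3 each). The other 27 tested IDs summed to 86.7, 97.4 and 93.6 CPM in ra3tpp4, against 116, 104 and 128 CPM in WT. The 3 mutant sums were all under the 3 WT sums, at 92.6 ± 5.39 CPM in ra3tpp4 and 116 ± 12.1 CPM in WT (SD, n = 3 each). GRMZM5G804358 supplied 9.14 CPM of a difference in group means of 23.1 CPM. Without it the sum of the other 26 was 81.5, 93.3 and 89.5 CPM in ra3tpp4, against 102, 92.7 and 112 CPM in WT, and the groups overlapped through ra3tpp4 replicate 2.

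The 90 IDs under the filter held 2.71% of the set's counts. Their sums were 7.48, 6.41 and 5.60 CPM in ra3tpp4 replicates 1, 2 and 3, from 180, 162 and 108 counts, against 10.4, 8.04 and 9.41 CPM in WT replicates 1, 2 and 3, from 269, 215 and 243 counts. The genotypes did not overlap, with means of 6.50 ± 0.944 CPM in ra3tpp4 and 9.28 ± 1.19 CPM in WT (SD, n = 3 each). The 8328 Zm00001d IDs under the filter summed to 530, 1143 and 520 CPM in ra3tpp4, against 750, 549 and 572 CPM in WT. There the genotypes overlapped through ra3tpp4 replicate 2 alone, at 731 ± 357 CPM in ra3tpp4 and 624 ± 110 CPM in WT. The 281 ENSRNA IDs under the filter stand for non-coding RNA genes. Their sums were 21.1, 26.3 and 18.8 CPM in ra3tpp4, against 29.7, 28.3 and 41.2 CPM in WT. As in the GRMZM IDs under the filter, the genotypes did not overlap, at 22.1 ± 3.83 CPM in ra3tpp4 and 33.0 ± 7.08 CPM in WT. With no filter, when all 121 IDs were tested among 29851, 13 of the 121 were lower and 0 higher at an unadjusted edgeR p under 0.05, where 4.92% of all IDs were lower and 5.89% higher. The 121 include 26 IDs with counts in WT alone and 6 with counts in ra3tpp4 alone. These met the rule through a single genotype, so the 13 and the 0 are a description only. GRMZM5G804358 was again the ID called lower after adjustment and 0 were called higher, where 0.714% of all IDs were called lower and 0.998% higher.

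**Figure D3:**
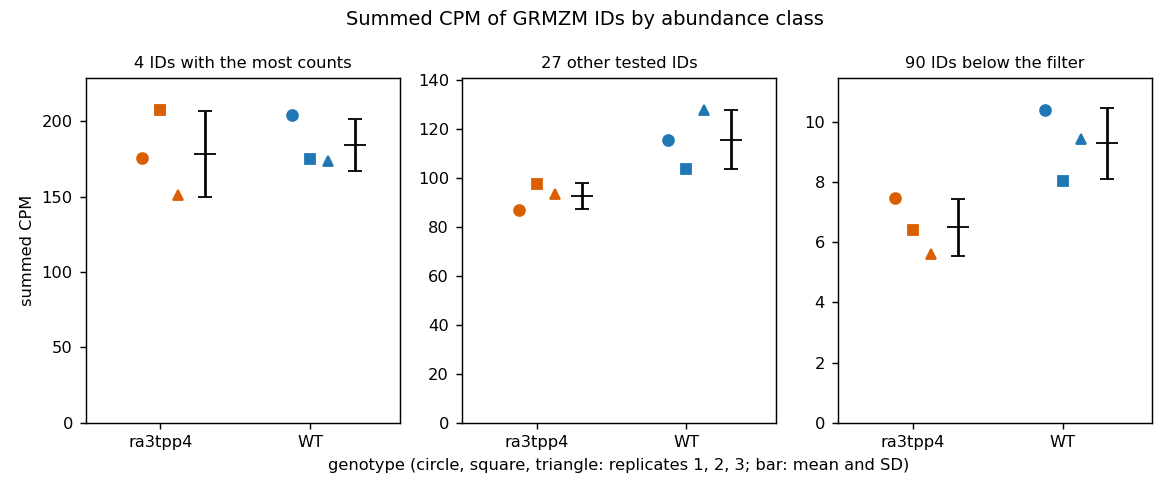
Summed CPM (axes start at 0) of the 4 GRMZM IDs with the most counts, of the other 27 tested IDs and of the 90 IDs under the filter, for each ra3tpp4 library in orange and each WT library in blue, with the mean and SD beside the points. The genotypes overlap in the first panel and lie apart in the others, at 92.6 against 116 CPM and at 6.50 against 9.28 CPM.

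Fewer GRMZM IDs had a count in the mutant libraries. The numbers were 75, 74 and 72 of the 121 in ra3tpp4 replicates 1, 2 and 3, against 92, 85 and 96 in WT replicates 1, 2 and 3. WT libraries were deeper, and expected numbers at the depth of the shallowest library were 71.4 ± 0.963 in ra3tpp4 and 85.6 ± 4.96 in WT (SD, n = 3 each), with no overlap. A count in all libraries was found for 49 IDs. Counts in ra3tpp4 alone were found for 6 IDs (4.96% of the 121), with at most 5 counts over its 3 libraries. Counts in WT alone were found for 26 IDs (21.5%), with at most 10. Among the 29198 Zm00001d IDs with a count these shares were 5.70% and 5.37%, and among the 501 ENSRNA IDs 6.39% and 10.8%. The 6 and the 26 GRMZM IDs were all under the filter, where they stand for 6.67% and 28.9% of the 90 IDs. Each of them met the rule on summed counts through a single genotype. A difference was thus built into their membership, and with it part of the difference in the numbers with a count. Among the 8328 Zm00001d IDs under the filter, 1665 had counts in ra3tpp4 alone and 1566 in WT alone, and the number with a count was 4216 ± 770 in ra3tpp4 libraries and 4374 ± 307 in WT libraries (SD, n = 3 each). Among the 281 ENSRNA IDs under it the shares were 11.4% in ra3tpp4 alone and 19.2% in WT alone. These shares are a description, and at such counts the absence of reads in the other genotype does not show absence of the transcript.

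Between libraries, the IDs moved partly in step. For each tested ID, the log2 CPM in a library was set against its mean over the 6 libraries. The median of these deviations was -0.15, 0.09 and -0.23 in ra3tpp4 replicates 1, 2 and 3, against 0.22, 0.01 and 0.14 in WT replicates 1, 2 and 3. Replicate 2 of the mutant was thus nearer to WT than to the other mutant libraries by this median, with 14 of 31 IDs below their own mean, while ra3tpp4 replicates 1 and 3 had 24 and 23 of 31 below it. With all 121 IDs in place of the 31, the median of ra3tpp4 replicate 2 turned to -0.13. Over the tested Zm00001d IDs the same medians stayed within -0.02 to 0.03. Over the 220 tested ENSRNA IDs they were -0.07, -0.30 and -0.55 in ra3tpp4, against 0.42, 0.25 and 0.45 in WT, so ra3tpp4 replicate 2 was below 0 in that class.

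Some libraries stood at an extreme more often than others, and ra3tpp4 replicate 2 was often at either end. The lowest library was ra3tpp4 replicate 3 for 14 of the 31 IDs, ra3tpp4 replicate 2 for 8 and ra3tpp4 replicate 1 for 5, against 0, 3 and 1 for WT replicates 1, 2 and 3. The highest library was ra3tpp4 replicate 2 for 9 of the 31 (29.0%) and WT replicate 3 for 11 (35.5%). Among tested Zm00001d IDs, ra3tpp4 replicate 3 was lowest for 19.7%, ra3tpp4 replicate 2 highest for 22.6% and WT replicate 3 highest for 18.3%. Among tested ENSRNA IDs these shares were 55.5%, 8.18% and 37.7%. All 4 leading GRMZM IDs were lowest in ra3tpp4 replicate 3, and 3 of them highest in ra3tpp4 replicate 2. Spread between libraries was taken as edgeR's biological coefficient of variation. This is a single estimate for both genotypes, drawn toward the trend over IDs of like level, and it does not show how the genotypes differ in spread. The coefficient was 0.102, 0.120, 0.0869 and 0.142 in the 4 leading IDs. It reached 0.466 in GRMZM5G890451. For 12 of the 31 IDs (38.7%) it was above the trend for their level, beside 26.7% of all tested IDs.

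**Figure D4:**
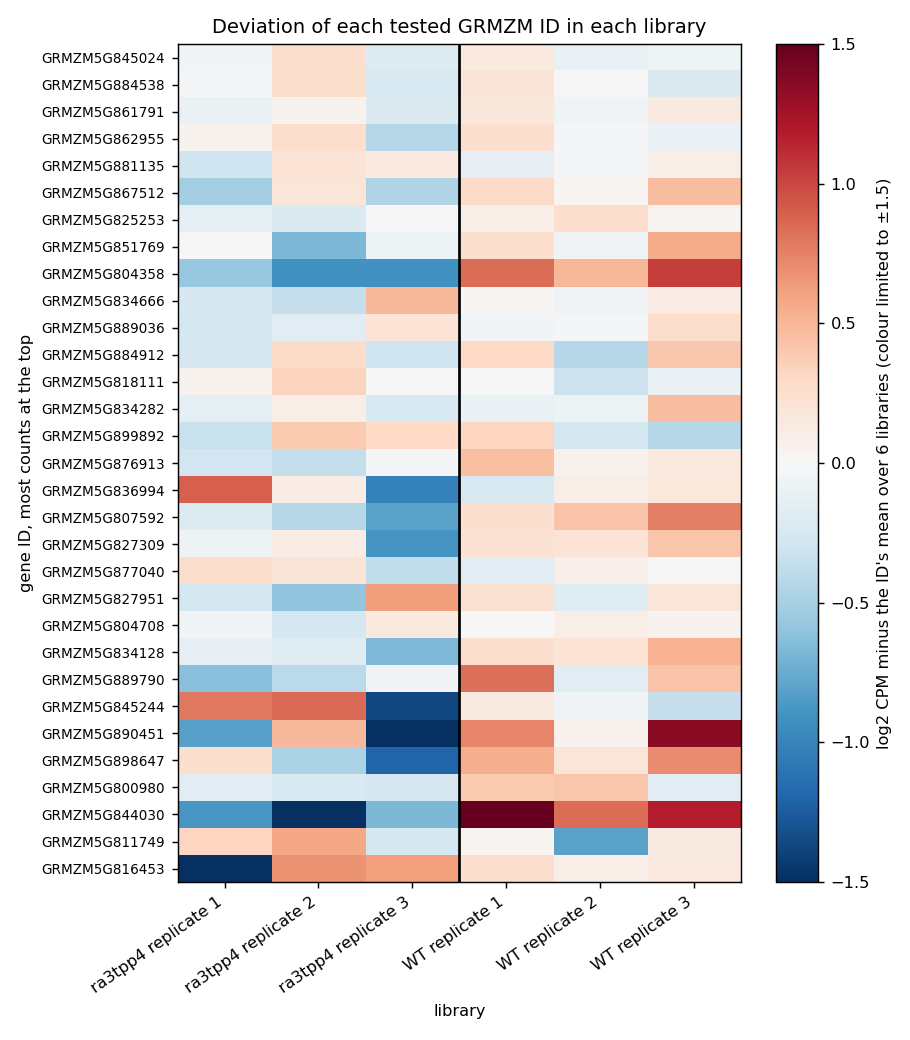
Log2 CPM of each tested GRMZM ID minus its mean over the 6 libraries, in colour, with ra3tpp4 libraries left of the line and WT libraries right of it. GRMZM5G804358 and GRMZM5G844030 are blue in all mutant libraries and red in all WT libraries, whereas the 4 IDs at the top are red in ra3tpp4 replicate 2 and blue in ra3tpp4 replicate 3.

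Some library-level values also differed between the genotypes. Gene IDs held 19291332 to 25254164 counts in ra3tpp4 libraries and 25815984 to 26752609 in WT libraries, and ra3tpp4 replicate 3 was the shallowest. Alignments that were not unique made up 15.3%, 12.9% and 11.0% of all lines in ra3tpp4 replicates 1, 2 and 3, against 21.4%, 19.3% and 22.2% in WT replicates 1, 2 and 3 (two-sided exact permutation test over libraries, p = 0.1, as low as 3 against 3 can go). Such records are not in the gene counts, so the counts of any GRMZM ID with a near-identical copy elsewhere are uncertain. Ambiguous records (1.17% in ra3tpp4, 1.12% in WT, means) and low-quality alignments (0.325% against 0.277%) took larger shares in ra3tpp4. Unaligned records took 3.86% ± 2.02 in ra3tpp4, with 1.57% in replicate 1, against 5.79% ± 0.312 in WT. These 3 shares had the same exact permutation p of 0.1, and records with no feature had 0.9. ENSRNA IDs took 0.0723% ± 0.0194 of gene counts in ra3tpp4 and 0.216% ± 0.0317 in WT (SD, n = 3 each). The part of these library differences in the values of the GRMZM IDs was not tested, and library preparation and genotype cannot be told apart.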

How the data were processed

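Each deposited file holds raw counts per gene ID for 1 library. Per the submitters' processing notes, the authors trimmed reads with Trimmomatic 0.36, aligned them with HISAT2 2.1.0 and counted them with HTSeq on B73 RefGen_v4. No source used here gives the annotation release or the strand setting, and overlapping genes may share or lose reads. The 5 HTSeq lines were kept out of totals and tests. They made up 23.5% of all lines on average in ra3tpp4 and 33.2% in WT.

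CPM was computed over all gene rows. edgeR 4.0.16 (quasi-likelihood, robust, filterByExpr, TMM) in R 4.3.3 was fitted to all 6 libraries by genotype, with Benjamini-Hochberg adjustment over 21127 IDs and a threshold of 0.05. Standard errors came from the log2 change and its F statistic. Deviations used log2 CPM with a prior count of 2. Alternatives were DESeq2 1.42.0, limma-voom (limma 3.58.1), other scalings and filters, a replicate block, and leaving out each library. Shares of lines were compared by exact permutation tests. The p-values set differences between the genotypes against the spread between libraries, and the series design calls these libraries biological replicates.

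The members and lists were chosen with earlier results of these data known. Named IDs were the 10 with the highest mean CPM, the 3 largest changes in each direction, and those past an adjusted or unadjusted p of 0.05. Lists of organelle genes by symbol were not tested, since no ID was matched to a symbol.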

Additional observations from a re-analysis of the deposited data

How the results depend on the processing

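Among the 31 tested GRMZM IDs, 20 kept the sign of their log2 change in every alternative that tested them. The other 11 changed sign in at least 1, and with all libraries and the chosen settings their log2 changes were at most 0.22 in size. GRMZM5G834666, near 0, turned to -0.086 in limma-voom, -0.024 with library totals only, -0.00089 with TMM on Zm00001d IDs alone, -0.0012 with no filter on low counts and -0.039 with the replicate block. Among the IDs named in the text, leaving out each library in turn gave ranges that crossed 0 in GRMZM5G845024 (-0.080 to 0.13), GRMZM5G884538 (-0.089 to 0.14), GRMZM5G862955 (-0.18 to 0.13), GRMZM5G881135 (-0.014 to 0.21), GRMZM5G834666 (-0.31 to 0.16) and GRMZM5G836994 (-0.35 to 0.57).

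The number of GRMZM IDs called, 1, was 2 in DESeq2, and 1 to 2 when each library was left out. Over all IDs, 310 were called, against 846 in DESeq2, 511 with no filter on low counts, and 58 to 471 when each library was left out. The 58 came without WT replicate 3. Calls rose to 471 without ra3tpp4 replicate 2 and to 331 without ra3tpp4 replicate 3, although fewer libraries entered those fits. The cause was not tested. Same-numbered libraries did not deviate together (correlations of deviations -0.181, -0.123 and 0.154). The replicate block left 290 calls, with GRMZM5G804358 among them at a log2 change of -1.57. The set's share of gene counts, 0.0277% in ra3tpp4 and 0.0309% in WT, was 0.0212% and 0.0206% over all lines of the files, a larger denominator. Without GRMZM5G845024 it was 0.0226% in ra3tpp4 and 0.0258% in WT. Leaving out each library gave 0.0260% to 0.0291% in ra3tpp4 and 0.0299% to 0.0321% in WT. The median deviation of ra3tpp4 replicate 2, 0.09, became -0.13 with every ID that had a count. Depth limits statements on the 55 IDs with fewer than 10 counts in total.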
